A study of Mus musculus with 4 samples.

Results

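L2, L3 and MIR are the oldest abundant families of transposable elements (TEs) in the mouse genome, and their expression was compared between embryonic stem cells (ESCs) lacking the telomerase RNA *Terc* and wild-type (WT) ESCs. The members were chosen by repeat name alone, and 10 names met the rule, namely L2, L2a, L2b, L2c, L3, L3b, MIR, MIRb, MIRc and MIR3. These names comprised 200381 of the 3658072 annotated TE copies, or 10 of 1072 repeat families. The WT line is called N12 and the G3 Terc-/- line F35 in the labels, both on the C57BL/6 background. Each line gave 2 poly(A) RNA-seq libraries, and all cells were grown on feeder cells in medium with serum and LIF. G3 marks the third generation of Terc deficiency, and the labels put G3 before the WT line as well. Each genotype was 1 ESC line, so that genotype and line cannot be told apart. The methods describe the 2 libraries of a line as biological replicates.

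L2 and L3 are long interspersed elements (LINEs) that spread before the placental mammals diverged, and none of their copies is known to be able to move in the mouse today. MIR elements are short interspersed elements (SINEs) with a tRNA-derived head whose tail resembles the end of L2, and they are thought to have been copied by the L2 machinery. Most surviving copies are short, diverged fragments in introns, untranslated regions and intergenic DNA. Reads on them therefore often come from the transcript of a host gene. The counts analysed here do not separate such reads from RNA started within the repeat. In bulk RNA, fewer cells of a type and less RNA per cell also give the same counts.

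TE counts per library lay between 1805047 and 2104586 and gene counts between 18047995 and 22520017, with G3 Terc-/- replicate 2 the shallowest on both. The replicates of a line differed by more than sampling noise on the tested copies of the old repeats, with a chi-square per copy of 1.47 or more in either genotype. *Terc* was read at 7 and 2 counts in WT cells and at 0 in either G3 Terc-/- library (upper limit 3 counts). All 10 pluripotency markers were detected, with a summed level of 6184 and 6282 CPM (gene counts scaled to a common library size) for WT and of 7656 and 7953 for G3 Terc-/- libraries. All 12 feeder fibroblast markers were detected too, at 477 and 310.5 CPM for WT and 532 and 364 CPM for G3 Terc-/- libraries. The part of either list in the results for the repeats was not tested.

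The old repeats held a similar share of the TE counts in all 4 libraries. All 10 families together took 8.02% and 8.03% of the TE counts in WT, as against 8.04% and 7.69% in the G3 Terc-/- libraries. One G3 Terc-/- library thus lay above both WT libraries and the other below them (exact permutation test, two-sided, p = 1). MIR families made up the larger part, with 4.45% ± 0.00332 (SD, n = 2) for WT and 4.40% ± 0.125 (SD, n = 2) for G3 Terc-/-. L2 families held 2.51% ± 0.00214 (SD, n = 2) for WT and 2.45% ± 0.0797 (SD, n = 2) for G3 Terc-/-. L3 families held 1.07% ± 0.00280 (SD, n = 2) for WT and 1.02% ± 0.0418 (SD, n = 2) for G3 Terc-/-. For L3 both G3 Terc-/- libraries lay below both WT libraries, and for L2 G3 Terc-/- replicate 1 was practically level with WT replicate 1 (2.5062% and 2.5065%) and replicate 2 below WT. For both classes the exact permutation p was 0.333, and 0.333 is the smallest p that the exact permutation test of 2 libraries against 2 can give. Without G3 Terc-/- replicate 2, the difference in the share of all 10 families, G3 Terc-/- minus WT, went from -0.157 to 0.0167 percentage points, and without G3 Terc-/- replicate 1 to -0.331. Left out in the same way, replicate 2 brought L2 from -0.058 to -0.0017, L3 from -0.047 to -0.017 and MIR from -0.053 to 0.035 percentage points, and replicate 1 brought them to -0.114, -0.0761 and -0.141. The share read against gene counts instead pointed the other way, with 0.749% and 0.7501% for WT and 0.759% and 0.769% for G3 Terc-/- libraries.

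Reads were concentrated on few copies. Of the 200381 copies, 173579 (86.6%) had no count in any library, 17847 had 1 to 4 counts over the 4 libraries, and 8955 (4.47%) had at least 5 and were tested singly. Over all TE copies, 4.81% reached 5 counts. At the edge of this minimum, 1531 copies had 4 counts and were left out, and 1124 copies had exactly 5 and were kept. The tested copies carried 95.04% of the 639098 counts on the 10 families, 183 copies carried 50% of them, and the 796 copies with at least 100 counts carried 72.1%. Copy 17034 of MIRb, numbered as in the table of counts, alone held 9.45% of all counts on the 10 families and 40.5% of those on MIRb. The share of copies tested was similar among families, from 3.91% for L3b to 5.40% for MIR3. Copy lengths were not used here, so that levels are not compared between families.

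Each of the 10 families was tested with edgeR in one fit over the 917 TE families that passed the filter on low counts. At the cutoffs used for TE classes, 1.5-fold or more with *P* under 0.05, 0 of the 10 rose and 0 fell in G3 Terc-/- ESCs, where 5.13% of all families were higher and 2.94% lower. DESeq2 gave 0 and 0 as well. Without the fold cutoff, 7 of the 10 were lower at an adjusted p-value under 0.05 in edgeR (7 at an unadjusted one) and 0 were higher (0 at an unadjusted one). Of all families, 11.6% were lower and 13.2% higher by that rule. The 7 came to 2 with DESeq2 (7.74% of all families lower), to 1 with the replicate number as a block (7.85%) and to 0 with scaling by the gene counts (5.56%). All 10 log2 fold changes were negative, with a median of -0.086, against -0.0046 over all families. In the values that follow, levels are CPM of the TE counts after TMM scaling, given first for the WT libraries and then for the G3 Terc-/- libraries.

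Among the L2 families, L2 itself had 8624 and 8740.4 CPM in WT and 8240.2 and 7888 CPM in G3 Terc-/- ESCs, a log2 fold change of -0.11 (SE 0.027, adjusted p = 0.0175 from edgeR). L2a had 7909.7 and 7839 CPM in WT and 7397 and 7372 CPM in G3 Terc-/- ESCs, a log2 fold change of -0.093 (SE 0.024, adjusted p = 0.0170 from edgeR). L2c had 4659 and 4616 CPM in WT and 4432 and 4221 CPM in G3 Terc-/- ESCs (log2 fold change -0.10, SE 0.031, adjusted p = 0.0397 from edgeR). In each of these 3 families both G3 Terc-/- libraries lay below both WT libraries, by 6.22% to 7.11% on average. How often the genotypes separate in this way over all TE families was not counted, here or for the families below. L2b had 4349 and 4328 CPM in WT and 4454 and 4139.9 CPM in G3 Terc-/- ESCs, so that the G3 Terc-/- libraries lay on either side of WT (log2 fold change -0.013, adjusted p = 0.837 from edgeR). Whether L2b differs from the other L2 families was not tested.

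L3, an element of the CR1 clade, had 9614 and 9529 CPM for WT and 9024 and 8544 CPM for G3 Terc-/- libraries. This log2 fold change of -0.12 (SE 0.029, adjusted p = 0.0113 from edgeR) was the furthest from 0 of the 10 families and amounts to 8.21%. L3b had 1288 and 1312 CPM in WT and 1259 and 1243 CPM in G3 Terc-/- ESCs, a log2 fold change of -0.055 that did not pass the test (adjusted p = 0.349 from edgeR). Its 10 most abundant copies held 73.1% of its counts, so the value rests on few copies.

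Among the SINEs, MIR had 7571 and 7582 CPM in WT and 7129.8 and 7041 CPM in G3 Terc-/- ESCs (log2 fold change -0.097, SE 0.024, adjusted p = 0.0150 from edgeR). MIR3 had 8469.9 and 8501 CPM in WT and 8155 and 7909 CPM in G3 Terc-/- ESCs (log2 fold change -0.079, SE 0.025, adjusted p = 0.0450 from edgeR). MIRb had 19120.1 and 18998 CPM in WT and 18356 and 17778 CPM in G3 Terc-/- ESCs (log2 fold change -0.077, SE 0.023, adjusted p = 0.0317 from edgeR). The groups did not overlap for MIR, MIR3 and MIRb, and the differences came to 5.20% to 6.48%. In a further run each family was fitted without its most abundant copy, which left 854 families tested. The call for MIRb, there without copy 17034, was lost (log2 fold change -0.020, adjusted p = 0.606 from edgeR). L2c also missed an adjusted p-value of 0.05 in that run (log2 fold change -0.098, adjusted p = 0.0622 from edgeR). MIRc had 10155 and 10195 CPM in WT and 10240.3 and 9791 CPM in G3 Terc-/- ESCs, again on either side of WT (log2 fold change -0.023, adjusted p = 0.609 from edgeR).

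The size of these small differences, and for 3 families the direction, depended on the scaling. When the TE counts were scaled with sizes and factors taken from the gene counts, the 10 log2 fold changes ran from -0.052 for L3 to 0.057 for L2b, 3 of them (L2b, L3b and MIRc) turned positive, and 0 families were called by edgeR at an adjusted or an unadjusted p-value under 0.05. The calls by adjusted p-value also changed with the library left out. The log2 fold change of L3 ran from -0.162 without G3 Terc-/- replicate 1 to -0.0816 without G3 Terc-/- replicate 2. That of L2b ran from -0.0658 to 0.0412 in the same runs. With 3 libraries, the lone library of a genotype is assumed to vary like those of the other. The plot of the 10 families under both scalings shows these shifts.

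**Figure D1:**
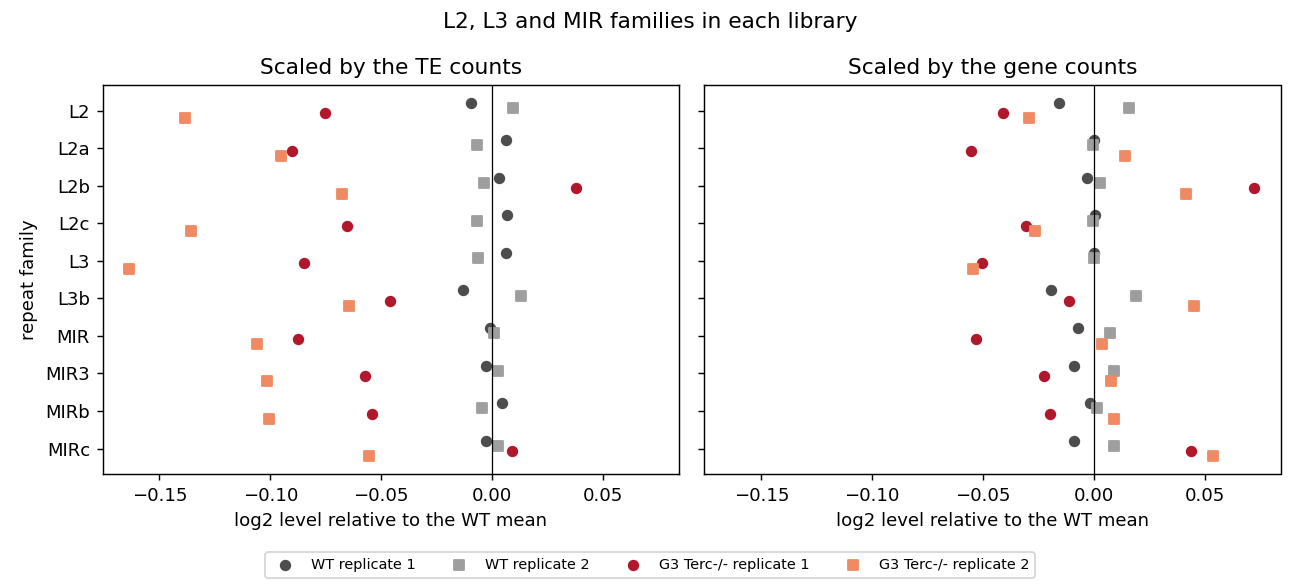
Level of each L2, L3 and MIR family in each of the 4 libraries, as the log2 ratio to the mean of the WT libraries, scaled by the TE counts (left) and by the gene counts (right). Grey points are WT and red or orange points G3 Terc-/- libraries, with circles for replicate 1 and squares for replicate 2. On the left 8 of the 10 families have both G3 Terc-/- points below both WT points, and on the right the points lie on both sides of 0. The share of all TE families that separate in this way was not counted.

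Other repeats of like age and kind gave comparable values on the TE scale, without a test between the sets. A list of further ancient families with names such as L4, CR1, AmnSINE and X8_LINE had 17 families tested, with a median log2 fold change of -0.075, 12 negative values, and 3 lower and 0 higher at an adjusted p-value under 0.05. These 3 were MamSINE1, an old SINE, at -0.46 (SE 0.048, adjusted p = 7.01e-05 from edgeR), X7A_LINE at -0.49 (SE 0.058, adjusted p = 0.000183 from edgeR) and X5B_LINE at -0.61 (SE 0.12, adjusted p = 0.00481 from edgeR). MamSINE1 had 2166 and 2122 counts in WT against 1646 and 1365 in G3 Terc-/- libraries, and X5B_LINE, with 204 and 214 counts in WT against 133 and 130, passed the family cutoffs. X7C_LINE passed them upwards, with 22 and 23 counts in WT against 36 and 31 (log2 fold change 0.63, adjusted p = 0.135 from edgeR). These 4 families were singled out after their values were seen. The 80 ancient L1M families tested had a median of -0.11, with 12 lower and 2 higher by adjusted p-value. The 27 rodent SINE families (B1, B2, B3, B4, ID and PB1 names), which are far younger, had a median of -0.073, with 13 lower and 1 higher. Under scaling by the gene counts the medians of these sets came to -0.0045, -0.038 and -0.0010, against -0.014 for the L2, L3 and MIR families and 0.064 for all families. By adjusted p-value it left 3 of the further ancient, 5 of the L1M and 0 of the rodent SINE families lower. By the same rule 1, 2 and 1 of them were higher, where 5.56% of all families were lower and 16.5% higher. Under this scaling 0 of the further ancient families passed the lower family cutoff, X5B_LINE included.

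Single copies had larger fold changes than the families, but many had few counts, and such counts vary more by sampling alone. Of the 8955 L2, L3 and MIR copies tested, 278 (3.10%) rose and 359 (4.01%) fell in G3 Terc-/- ESCs at 2-fold or more with *P* under 0.05, where over all 176114 TE copies 4.70% were higher and 3.87% lower. With an adjusted p-value under 0.05 in place of the unadjusted one, 22 were higher and 34 were lower, or 0.246% and 0.380%, beside 0.634% and 0.366% of all copies. The share of copies that were lower was thus close to that of all TE copies, and the share that were higher was below it, with no test between them. By class, 80 of 3106 L2 copies were higher and 127 lower, 20 of 518 L3 copies were higher and 26 lower, and 178 of 5331 MIR copies were higher and 206 lower. The median log2 fold change was -0.086 for L2, -0.025 for L3 and -0.023 for MIR copies, against 0.023 over all copies. Ancient L1M copies had 2.99% higher and 4.11% lower, and rodent SINE copies 2.94% and 3.92%. DESeq2 called 66 copies (0.737%) higher and 88 (0.983%) lower, and 1.60% and 1.01% of all copies. Without G3 Terc-/- replicate 1, 93 (1.04%) were higher and 258 (2.88%) lower, beside 1.65% and 2.94% of all copies. Without G3 Terc-/- replicate 2, 126 (1.41%) were higher and 219 (2.45%) lower, beside 1.93% and 2.60% of all copies.

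**Figure D2:**
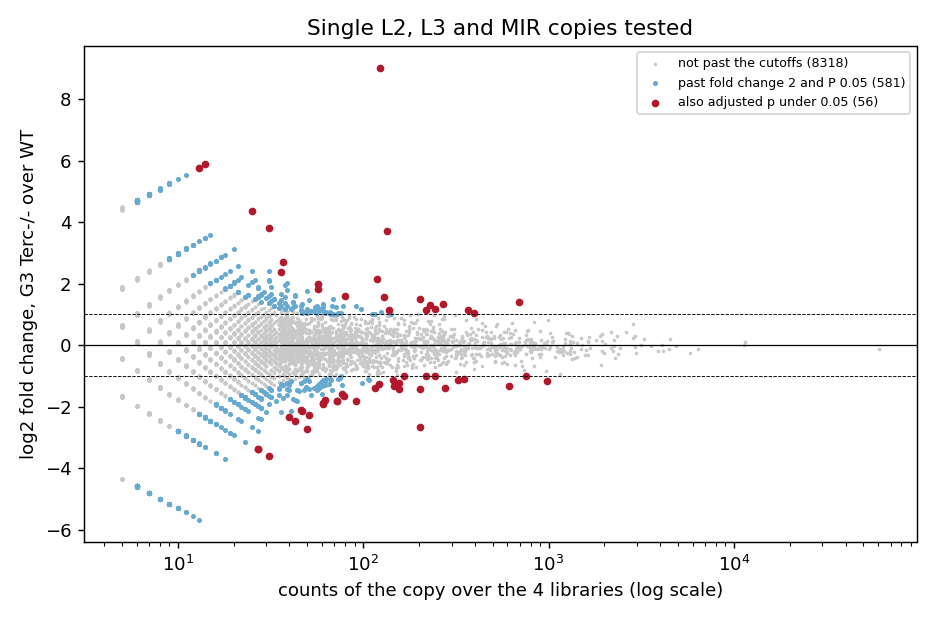
Log2 fold change of each of the 8955 tested copies (G3 Terc-/- over WT) against its counts over the 4 libraries on a log scale. Grey points did not pass the cutoffs, blue points changed by 2-fold or more with P under 0.05, and the 56 red points also had an adjusted p-value under 0.05. The spread narrows to the right, and none of the 85 copies with at least 1000 counts lies past the dashed lines at a fold change of 2.

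Of the 796 copies with at least 100 counts, 760 (95.5%) lay within a fold change of 2, compared with 91.9% of the TE copies of that abundance as a whole, and their quartiles ran from -0.26 to 0.25 on the log2 scale. Of the 85 copies with at least 1000 counts, 0 passed the cutoffs in edgeR and 0 in DESeq2, with log2 fold changes between -0.95 and 0.70. Of all 773 TE copies of that abundance, 2.59% were higher and 4.27% lower in edgeR. By adjusted p-value together with the fold cutoff, the calls were most frequent among copies with at least 100 but under 1000 counts, 1.83% higher and 2.39% lower (all TE copies 3.69% and 3.49%), and 0 of the copies with 5 to 9 counts were called, as among all TE copies. Among the 85 copies with at least 1000 counts, 18 were higher and 19 lower at an unadjusted p-value under 0.05 in edgeR. All of these lay below the fold cutoff. By adjusted p-value 3 were higher and 5 lower. The shares of all TE copies of that abundance by these rules were not counted. In the range from 50 to 99 counts, 5.25% of the old repeats were higher and 5.90% lower, where all TE copies had 7.42% and 5.47%. Many of the copies called had no count in one genotype. Among those higher, 88 of 278 (31.7%) had 0 counts in both WT libraries, and among those lower, 118 of 359 (32.9%) had 0 counts in both G3 Terc-/- libraries. The shares over all TE copies were 29.5% and 34.3%. The 118 copies had at most 13 counts each over the 4 libraries, and the 88 at most 123. A copy could meet the minimum of 5 counts through a single genotype, so such zeros are partly set by that filter.

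**Figure D3:**
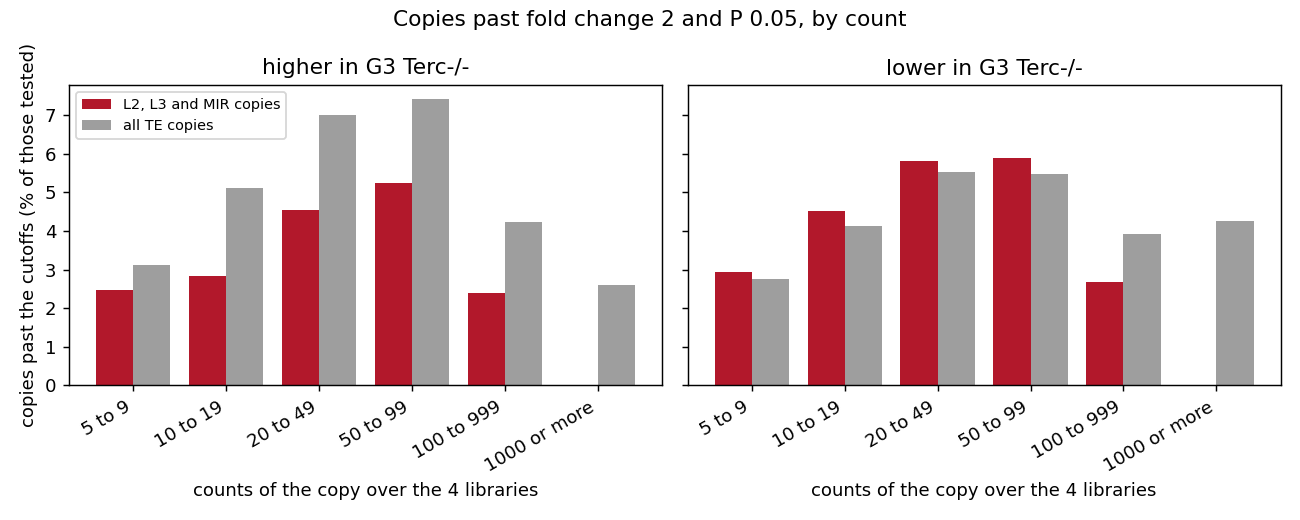
Share of tested copies that changed by 2-fold or more with P under 0.05, higher (left) and lower (right) in G3 Terc-/- ESCs, by the counts of the copy over the 4 libraries. Red bars are L2, L3 and MIR copies and grey bars all TE copies, which include them. The red bars on the left lie below the grey ones in each count range, and there is no red bar at 1000 or more counts because 0 of the 85 copies passed.

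None of the 5 copies with the most counts reached a fold change of 2 or an adjusted p-value under 0.05. Copy 17034 of MIRb had 16271 and 16382 counts in WT against 15136 and 12606 in G3 Terc-/- libraries, a log2 fold change of -0.13 (SE 0.066, adjusted p = 0.483 from edgeR). Copy 8942 of MIRc had 2751 and 3016 counts in WT against 3248 and 2499 in G3 Terc-/- libraries, and after scaling one G3 Terc-/- library lay above both WT libraries and the other between them. Copy 22353 of L2a had 2925 and 2891 counts in WT against 2965 and 2501 in G3 Terc-/- libraries, a log2 fold change of 0.012. After scaling, the genotypes did not overlap for the MIRb copy and overlapped for the other two. Copy 8787 of MIR3 had 1639 and 1806 counts in WT against 1666 and 1313 in G3 Terc-/- libraries (log2 fold change -0.11, adjusted p = 0.768 from edgeR). Copy 8451 of L3 had 1547 and 1710 counts in WT against 1476 and 1086 in G3 Terc-/- libraries (log2 fold change -0.25, unadjusted p = 0.00659 and adjusted p = 0.219 from edgeR), and its scaled values did not overlap between the genotypes.

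The 10 copies with the smallest *P* among those higher in G3 Terc-/- ESCs came from MIR3 (5 copies), MIRb (2 copies), L2, L2a and L3 (1 copy each). Copy 7685 of MIR3 had 0 counts in WT cells, in both libraries, against 56 and 67 in G3 Terc-/- libraries. When a floor of 3 counts over both WT libraries is taken, this rise came to 44.1-fold (adjusted p = 1.90e-14 from edgeR). The lower 95% limit of the ratio for this copy was 35.3. Copy 5830 of MIR3 had 5 and 5 counts in WT against 74 and 51 in G3 Terc-/- libraries, a 13.1-fold rise (log2 fold change 3.71, SE 0.38, adjusted p = 4.51e-11 from edgeR). These 2 had the fewest WT counts of the 10. Copy 12277 of MIRb rose 4.41-fold, from 9 and 14 counts to 47 and 48 (log2 fold change 2.14, SE 0.35, adjusted p = 1.91e-05 from edgeR). Copy 3918 of L2 was the most abundant, with 94 and 106 counts in WT against 274 and 223 in G3 Terc-/- libraries, a 2.66-fold rise (log2 fold change 1.41, SE 0.15, adjusted p = 5.65e-11 from edgeR). Copy 13431 of L2a rose 2.81-fold, from 32 and 24 counts to 79 and 68 (adjusted p = 4.23e-05 from edgeR). In all of these, after scaling, both G3 Terc-/- libraries were above both WT libraries, which the choice by smallest *P* favours.

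The remaining 5 rose by 2.07 to 2.55 fold. Copy 9733 of MIR3 had 45 and 35 counts in WT against 91 and 99 in G3 Terc-/- libraries. Copy 6077 of L3 had 36 and 33 counts in WT against 83 and 76 in G3 Terc-/- libraries, and copy 15519 of MIRb had 61 and 60 counts in WT and 128 and 119. These 3 had adjusted p-values between 1.85e-05 and 0.000130 from edgeR. Copy 11362 of MIR3 had 32 and 46 counts in WT against 101 and 64 in G3 Terc-/- libraries, and it no longer reached a fold change of 2 without WT replicate 1 (log2 fold change 0.95) or without G3 Terc-/- replicate 1 (0.90). Copy 13687 of MIR3 had 36 and 100 counts in WT against 129 and 133 in G3 Terc-/- libraries, so that one WT library was close to the G3 Terc-/- level. Its log2 fold change of 1.05 was 0.50 without WT replicate 1, 1.96 without WT replicate 2, 1.16 (unadjusted p = 0.260 from edgeR) without G3 Terc-/- replicate 1 and 0.95 without G3 Terc-/- replicate 2, and DESeq2 did not call it (unadjusted p = 0.118).

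The 10 copies with the smallest *P* among those lower came from MIR (3 copies), L2a (2 copies), MIR3 (2 copies), L2, MIRb and MIRc (1 copy each). Copy 13561 of MIRc had 82 and 95 counts in WT against 11 and 15 in G3 Terc-/- libraries, 6.27-fold lower (log2 fold change -2.65, SE 0.29, adjusted p = 2.33e-10 from edgeR). Copy 27728 of MIR had 20 and 24 counts in WT against 2 and 4 in G3 Terc-/- libraries, 6.58-fold lower (log2 fold change -2.72, SE 0.59, adjusted p = 0.00313 from edgeR). Both had the furthest log2 fold changes of the 10, and the second had few counts and the widest SE. Copy 10090 of MIRb was the most abundant, with 323 and 365 counts in WT against 147 and 141 in G3 Terc-/- libraries, 2.22-fold lower (log2 fold change -1.15, SE 0.13, adjusted p = 1.47e-09 from edgeR). Copy 3197 of L2a had 240 and 208 counts in WT against 101 and 66 in G3 Terc-/- libraries, 2.50-fold lower (log2 fold change -1.32, SE 0.16, adjusted p = 9.10e-09 from edgeR).

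The other 6 were 2.01 to 2.71 fold lower, with adjusted p-values between 7.09e-07 and 0.00120 from edgeR. Copy 12695 of MIR had 107 and 97 counts in WT against 43 and 30 in G3 Terc-/- libraries, and copy 10143 of L2 had 117 and 111 counts in WT and 55 and 42. Copy 10394 of MIR3 had 59 and 57 counts in WT against 24 and 16 in G3 Terc-/- libraries. For all 10 lower copies both scaled G3 Terc-/- values were below both WT values, which the choice by smallest *P* favours. Copy 11088 of MIR3, with 255 and 263 counts in WT against 116 and 123 in G3 Terc-/- libraries, sat at the cutoff (log2 fold change -1.01), and came to -0.996 without WT replicate 2, to -0.88 without G3 Terc-/- replicate 1 and to -0.98 under scaling by the gene counts, each short of a fold change of 2. Copy 11081 of MIR, with 115 and 130 counts in WT against 51 and 55 in G3 Terc-/- libraries, came to -0.96 without G3 Terc-/- replicate 1. Copy 17398 of L2a, with 85 and 66 counts in WT against 35 and 17 in G3 Terc-/- libraries, kept its fold change but not its *P* value without G3 Terc-/- replicate 2 (log2 fold change -1.09, unadjusted p = 0.0544 from edgeR).

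**Figure D4:**
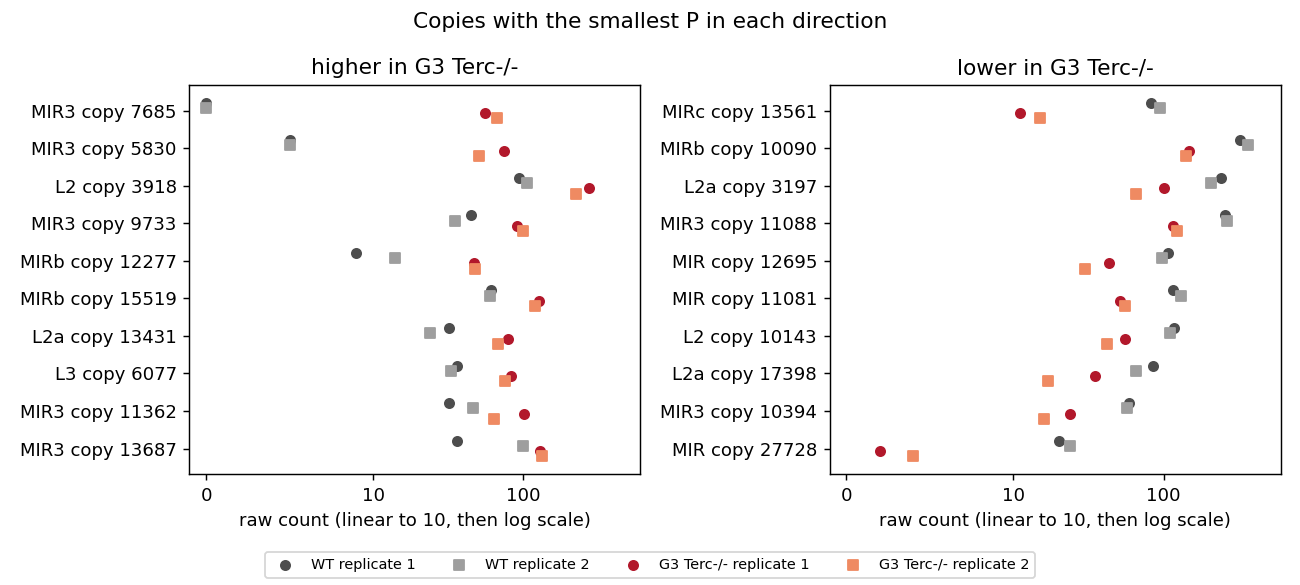
Raw counts per library of the 10 higher (left) and the 10 lower (right) L2, L3 and MIR copies with the smallest P, on an axis that is linear to 10 counts and logarithmic above. Grey points are WT and red or orange points G3 Terc-/- libraries, with circles for replicate 1 and squares for replicate 2. Copy 7685 of MIR3 lies at 0 counts for WT and at 56 and 67 counts for G3 Terc-/-.

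Some copies of one name with successive numbers in the table were called together, and such copies may share a source. Of 1955 such pairs among the tested copies, in 10 both copies were higher and in 8 both were lower. In 1 pair they were called in opposite directions, and in 219 only 1 copy was called. Pairs can share a copy, as with copy 523 of L2a and copy 3355 of MIRb. Pairs over all TE copies were not counted, so the numbers cannot be called particular to these repeats. Copy 13432 of L2a, next to copy 13431, had 31 and 41 counts in WT against 78 and 69 in G3 Terc-/- libraries. Copy 5831 of MIR3, next to copy 5830, had 2 and 3 counts in WT against 19 and 13 in G3 Terc-/- libraries. These neighbours are named because of the pairing, after their values were seen. The order behind the numbers is not stated, and whether the copies of a pair lie in one transcript was not analysed here.

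Nuclear RNA decay by the exosome removes much intronic and readthrough RNA, in which old repeats are common, and 21 genes of the nuclear exosome and its adaptors were examined on the gene counts. At 2-fold or more with *P* under 0.05, 0 of the 21 were higher and 0 lower in edgeR (2 and 6 at an unadjusted p-value under 0.05 and any size), where 4.73% of all genes tested were higher and 3.13% lower at these cutoffs. By adjusted p-value 2 were higher and 5 lower, where 21.7% of all genes tested were higher and 21.8% lower. Exosc5, a core subunit of the exosome ring, had 1443 and 1470 counts in WT against 1928 and 1597 in G3 Terc-/- libraries (log2 fold change 0.40, SE 0.062, adjusted p = 9.76e-07 from edgeR). Pabpn1, a nuclear poly(A)-binding protein, had 7085 and 7176 counts in WT against 5738 and 5401 in G3 Terc-/- libraries (log2 fold change -0.23, SE 0.053, adjusted p = 0.000590 from edgeR). Ncbp2, the smaller subunit of the nuclear cap-binding complex, had 1478 and 1600 counts in WT against 1254 and 1084 in G3 Terc-/- libraries (log2 fold change -0.27, SE 0.066, adjusted p = 0.000870 from edgeR). The list had a median log2 fold change of -0.076, against 0.0062 over all genes.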

How the data were processed

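RNA-seq of 2 WT and 2 G3 Terc-/- ESC libraries was analysed. According to the methods and the submitters' processing notes, the authors trimmed reads with Trim Galore, aligned them to mm10 with STAR and used featureCounts, and they deposited raw counts per gene and per TE copy. The methods name uniquely mapped reads for single TE copies, but whether the deposited counts were made so, and their strand setting, is not given in the sources used here. Copy positions and sequences were not used here.

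Copies were summed by repeat name. Families and genes (filterByExpr) and copies (at least 5 counts over the 4 libraries) were fitted over the whole table with edgeR 4.0.16, run in R 4.3.3 with TMM factors, the quasi-likelihood test and a model of genotype, with Benjamini-Hochberg adjustment over all features. The edgeR p-values set the difference between the genotypes against the spread between the 2 libraries of a line. They do not cover variation between lines. Shares were compared by exact permutation tests. DESeq2 1.42.0 and other settings were alternatives. The fits were tested on simulated counts, and figures were drawn with matplotlib 3.10.9.

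Members and lists were chosen with earlier results of these data known. The text names each member family, the 5 copies with the most counts, in each direction the 10 copies with the smallest *P* at a fold change of 2 and an adjusted p-value under 0.05, and 3 exosome genes with the smallest *P*.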

Additional observations from a re-analysis of the deposited data

How the results depend on the processing

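No member family passed the family cutoffs under any alternative run. The 278 higher and 359 lower copies (3.10% and 4.01% of those tested) numbered 66 and 88 in DESeq2 (0.737% and 0.983%, all copies 1.60% and 1.01%). At a minimum of 10 counts, 182 (3.45%) were higher and 251 (4.76%) lower of 5275 tested (all 5.73% and 4.70%). A minimum of 20 counts gave 132 (4.32%) and 158 (5.17%) of 3059 (all 6.65% and 5.44%). filterByExpr gave 80 (4.20%) and 98 (5.14%) of 1907 (all 7.27% and 5.97%). By adjusted p-value there were 22 and 34 (0.246% and 0.380%, all 0.634% and 0.366%). Fewer copies were tested under the 3 count filters, so the numbers fell while the shares rose. A replicate block gave 170 and 208 (1.90% and 2.32%, all 3.08% and 2.28%). The numbers carried little shared deviation between the genotypes, with a correlation of -0.0431 over families and 0.0896 over genes. With each library left out in turn, 93 to 242 copies were higher and 219 to 299 lower (all copies 1.65% to 3.60% and 2.60% to 3.15%). The 7 families lower by adjusted p-value came to 2 with DESeq2, 0 with scaling by the gene counts, 1 with the block and 0 to 8 with a library left out. These alternatives for the 7 families were added after the data were seen. Of all families, 7.74% were lower with DESeq2, 5.56% with scaling by the gene counts and 7.85% with the block. With a library left out, the share of all families lower was smallest without WT replicate 1 and largest without G3 Terc-/- replicate 1. The number of L2, L3 and MIR families lower was smallest and largest in the same runs, so this swing was not particular to them. Under scaling by the gene counts the log2 fold changes of L2b, L3b and MIRc were 0.0573, 0.0165 and 0.0488. With a library left out, L2b ran from -0.0658 to 0.0412 and MIRc from -0.0537 to 0.0127. Copy 8942 of MIRc ran from -0.0150 to 0.194 and copy 22353 of L2a from -0.0264 to 0.0498, and the latter was -0.0104 with filterByExpr. As a share of the gene counts, the L3 families differed by -0.000581 percentage points. The cause was not tested. Of the 20 named changed copies, 20 stayed past the cutoffs with the block, 19 with DESeq2 and 19 with scaling by the gene counts. These copies were chosen by smallest *P* in the same libraries, so the choice favours their staying and says nothing about the other called copies. Intervals cover neither copy length nor reads shared between copies, and 2 libraries of 1 line per genotype limit all tests.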
